A study of Mus musculus with 12 samples.

Results

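The 10 genes followed here belong to the dual specificity phosphatase family and were measured in mouse neutrophils and macrophages exposed to the neuropeptide CGRP. They are *Dusp1*, *Dusp2*, *Dusp3*, *Dusp4*, *Dusp5*, *Dusp6*, *Dusp7*, *Dusp10*, *Dusp16* and *Dusp22*. They were taken by gene name, and all 10 were found among the 52636 genes of both count tables. The members, and the lists of pathway genes used below, were chosen with earlier results of these data known. Shares of members or listed genes set beside those of all genes are therefore descriptions and not tests. Neutrophils and monocytes came from the bone marrow of C57BL/6 J mice aged 8 to 12 weeks, and the monocytes were first grown for 3 days with 10 ng/ml M-CSF, which drives their differentiation into macrophages. The sample labels call the cultured cells monocyte/macrophage, and they are called macrophages here. Each cell type received 1 nM CGRP or saline (PBS) for 4 h, with 3 libraries per group and 12 in all, to ask how CGRP changes gene expression in these cells. CGRP and saline libraries of a cell type shared strain and medium, whereas M-CSF was given to the macrophages only and the culture medium differed between the cell types. The sources used here do not say whether the libraries of a group came from separate mice, so the p-values below measure the spread between these libraries, which may be technical.

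Dual specificity phosphatases remove phosphate from both tyrosine and serine or threonine residues. The best known of them, the MAP kinase phosphatases, switch off ERK, p38 and JNK, the kinases through which growth factors and inflammatory signals act in myeloid cells. Many of their genes are themselves induced by the kinase pathways they restrain, and so form negative feedback loops. CGRP acts through the receptor CALCRL with its partner RAMP1, which raises cAMP and activates protein kinase A and the transcription factor CREB. CREB binds the cAMP response element, a short palindrome, and more weakly its core.

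Neutrophil libraries held 2196558 to 3631989 counts and macrophage libraries 2002559 to 3477069, and CGRP replicate 3 was the shallowest library of each cell type. Replicate 3 was also the shallowest library within every group. A floor of 3 counts corresponded to 0.826 to 1.5 CPM of the library total, before the scaling between libraries that is used for the other CPM values. The markers of each label were the most abundant of the 9 marker lists in its libraries. The 10 neutrophil markers, led by *S100a8*, summed to 156212 to 229073 CPM in neutrophil libraries and to 306 to 453 CPM in macrophage libraries. The 10 macrophage markers, led by *Apoe*, summed to 35020 to 50253 CPM in macrophages and to 1724 to 2165 CPM in neutrophils. Neutrophil libraries also held 5328 to 6765 CPM of erythroid markers, 3204 to 3991 CPM of immature granulocyte markers and 888 to 1102 CPM of basophil and eosinophil markers, and the groups overlapped for each.

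The cAMP response element (TGACGTCA) and its 5-base core (TGACG) were looked for on both strands of RefSeq promoter windows, which run from 250 bases before to 50 bases after a transcript's start (GRCm38.p6). Of the members, 9 had a window, and *Dusp4* had none. A full element also holds the core on each strand. The full element occurred in 1.79% of the 32851 windows in the table and the core in 20.8%. Among the members, the *Dusp1* window alone held a full element, at bases -143 to -136 from the start, with a separate core at -191 to -187. *Dusp5* held a core on the opposite strand at -55 to -51, *Dusp16* one at -70 to -66, and *Dusp2* one on the opposite strand just after the start, at 6 to 10. The windows of *Dusp3*, *Dusp6*, *Dusp7*, *Dusp10* and *Dusp22* held neither motif. A match in these letters is a description of the sequence and not of binding. The 250 bases before the start are shown for the members that rose with CGRP, *Dusp1* (chr17:26508473-26508722, minus strand) and *Dusp5* (chr19:53528895-53529144, plus strand), and for *Dusp6* (chr10:99262981-99263230, plus strand), whose response differed between the cell types. They are written 5′ to 3′ along the gene's strand, with the element and the cores in capitals.
Dusp1: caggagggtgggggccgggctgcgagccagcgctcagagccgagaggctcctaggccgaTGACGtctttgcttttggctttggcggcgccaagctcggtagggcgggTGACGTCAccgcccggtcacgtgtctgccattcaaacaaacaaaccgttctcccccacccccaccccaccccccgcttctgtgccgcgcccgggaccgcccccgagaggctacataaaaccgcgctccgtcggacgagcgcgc
Dusp5: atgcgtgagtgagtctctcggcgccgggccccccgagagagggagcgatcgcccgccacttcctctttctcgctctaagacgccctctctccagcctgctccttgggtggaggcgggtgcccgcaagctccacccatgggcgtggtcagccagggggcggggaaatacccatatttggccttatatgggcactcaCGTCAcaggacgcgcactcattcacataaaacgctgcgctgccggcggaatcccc
Dusp6: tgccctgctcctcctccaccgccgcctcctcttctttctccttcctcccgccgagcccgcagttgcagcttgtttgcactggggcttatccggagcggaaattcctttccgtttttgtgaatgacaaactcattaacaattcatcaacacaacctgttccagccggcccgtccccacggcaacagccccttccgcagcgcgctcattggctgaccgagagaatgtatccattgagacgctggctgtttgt

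With saline, the members differed widely in level, and the cell types differed in which member led. On the scale of CPM per kb of exon, with CPM scaled by the trimmed mean of M values (TMM), *Dusp1* led in neutrophils at 25.0 ± 0.713 (SD, n = 3), ahead of *Dusp6* at 19.4 ± 1.35. *Dusp1* encodes MKP-1, a nuclear phosphatase of p38, JNK and ERK, and *Dusp6* encodes MKP-3, a cytoplasmic phosphatase of ERK. In macrophages *Dusp3*, which encodes the small atypical phosphatase VHR, led at 39.5 ± 7.21 CPM per kb, followed by *Dusp1* at 14.5 ± 1.01. The atypical *Dusp22* followed in macrophages at 9.61 ± 0.704 CPM per kb. In neutrophils it was at 4.54 ± 0.848, behind *Dusp3* at 8.63 ± 0.724. Lower in the order the libraries of neighbouring genes overlapped, as for *Dusp22*, *Dusp7* and *Dusp2* in neutrophils and for *Dusp6*, *Dusp2*, *Dusp7* and *Dusp4* in macrophages. *Dusp10* and *Dusp16*, which encode the JNK and p38 phosphatases MKP-5 and MKP-7, were at most 0.494 CPM per kb on average in either cell type. Reverse transcription started from the poly-A tail, so that counts need not grow with transcript length, and dividing by length may place long genes such as *Dusp16* too low. Without that division *Dusp22* (49.1 ± 3.59 CPM) and *Dusp1* (48.0 ± 3.35 CPM) changed places in macrophages, within their spread. There *Dusp7* (13.9 ± 5.22 CPM) also moved above *Dusp2* (9.78 ± 0.750 CPM), and *Dusp16* (3.85 ± 2.04 CPM) above *Dusp5* (2.98 ± 1.98 CPM). In neutrophils *Dusp10* (0.941 ± 0.769 CPM) moved above *Dusp4* (0.907 ± 1.08 CPM). The libraries overlapped in each of these pairs.

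**Figure D1:**
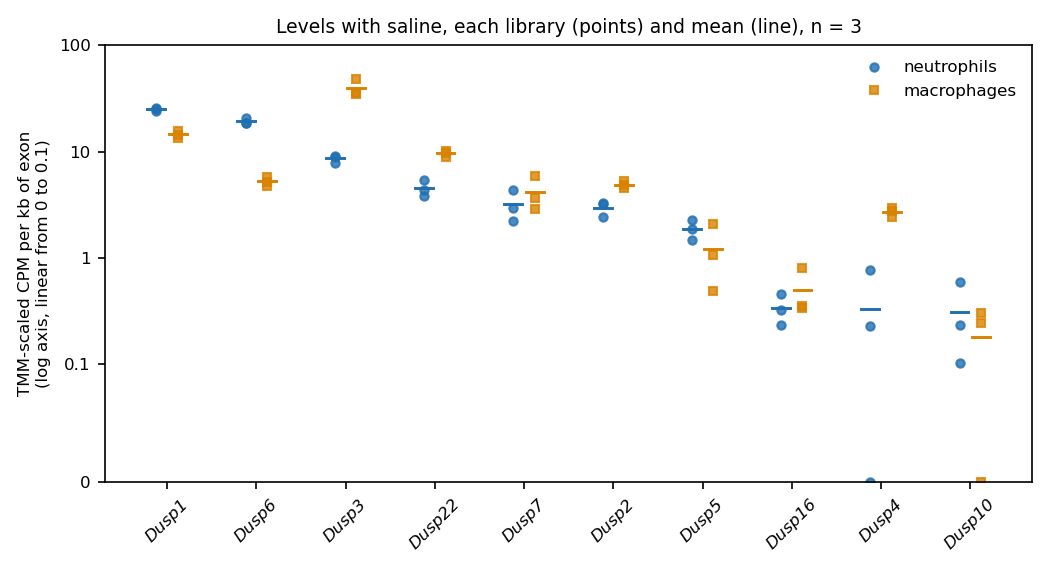
Level of each gene with saline, in TMM-scaled CPM per kb of exon (log axis, linear from 0 to 0.1), for the 3 neutrophil libraries (circles) and the 3 macrophage libraries (squares), with lines at the means. *Dusp1* and *Dusp6* stood highest in neutrophils and *Dusp3* in macrophages.

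The direct comparison of the saline libraries gave the sizes of these differences, on the log2 scale of macrophages against neutrophils. Of all 10186 genes tested, 68.5% differed between the cell types by limma-voom at an adjusted p under 0.05, so that a difference there was the rule. By direction, 33% of genes were higher in macrophages and 35.5% lower, and the groups of 71% did not overlap. Of the 10 members, 8 could be tested and 6 differed, 4 higher and 2 lower in macrophages, all 6 without overlap. *Dusp3* was 4.40-fold higher in macrophages (2.14, SE 0.15, adjusted p = 4.91e-10) and *Dusp22* was 2.06-fold higher (1.04, SE 0.17, adjusted p = 3.03e-05). *Dusp4*, encoding the nuclear phosphatase MKP-2, had 26, 22 and 22 counts in the macrophage libraries and 2, 7 and 0 in the neutrophil libraries (3.43, SE 0.62, adjusted p = 7.96e-05). *Dusp6* was 3.76-fold lower in macrophages (-1.91, SE 0.17, adjusted p = 1.39e-08) and *Dusp1* was 1.78-fold lower (-0.83, SE 0.13, adjusted p = 1.77e-05). These 5 calls held when any single library was left out, although the *Dusp4* difference then ranged from 2.44 to 4.28. *Dusp2*, encoding the nuclear phosphatase PAC-1 of activated leukocytes, was 1.61-fold higher in macrophages (0.69, SE 0.28, adjusted p = 0.0348). That call was lost in 5 of 6 fits without 1 library, each except the one without macrophage saline replicate 3, with adjusted p up to 0.157, and with DESeq2 (adjusted p = 0.103), no filter on low counts (0.0693) and thinning to the smallest library (0.0632). *Dusp5* (-0.87, SE 0.45, adjusted p = 0.0950) and *Dusp7* (0.31, SE 0.29, adjusted p = 0.350) did not pass. *Dusp5* passed without macrophage saline replicate 3 (-1.30, adjusted p = 0.0228) and in no other fit without 1 library. Over the 6 such fits its difference ranged from -1.30 to -0.38, with adjusted p up to 0.457. Cell type, M-CSF, time in culture, culture medium and the separate tables cannot be told apart in this comparison.

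In neutrophils, *Dusp5* and *Dusp1* rose with CGRP, and none of the members fell by the test. Of all 9819 genes tested, 2.53% were differentially expressed, 1.51% higher and 1.02% lower. In all, 7 members passed the filter on low counts and 2 were differentially expressed, both higher, by limma-voom and by edgeR, while DESeq2 called *Dusp5*. *Dusp7* alone had a negative change with an unadjusted p under 0.05. The groups did not overlap for 3 of the 7, 2 higher and 1 lower, against 17.8% of all genes (8.96% higher, 8.83% lower). The median log2 fold change of the 7 was -0.09, beside 0.00 for all genes. In bulk RNA, fewer cells of a type and less RNA per cell cannot be told apart.

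*Dusp5*, encoding a nuclear phosphatase selective for ERK, was at 5.61, 3.6 and 4.63 CPM in the saline neutrophils and at 14, 14.1 and 10.5 CPM in the CGRP-treated ones. Every CGRP library exceeded every saline library. The rise was 2.82-fold (log2 1.49, SE 0.29, adjusted p = 4.87e-03), on 43 counts in the saline group and 116 in the CGRP group. It was not called without saline replicate 2 (1.31, adjusted p = 0.0641), and was called when any other single library was left out.

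*Dusp1* was at 85.0, 80.3 and 83.0 CPM with saline and at 112, 109 and 108 CPM with CGRP. The groups lay well apart, with a spread within each group that was small beside the gap. The rise was 1.33-fold (log2 0.41, SE 0.10, adjusted p = 0.0249). It was called without CGRP replicate 3 and not in the fits that left out saline replicate 1, 2 or 3 or CGRP replicate 1 or 2 (adjusted p between 0.0655 and 0.155, log2 between 0.38 and 0.43). It was not called by DESeq2 (adjusted p = 0.0712), with no filter on low counts (0.0648) or in the single fit over 12 libraries (0.0932).

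The phosphatases of ERK in the cytoplasm gave no call in neutrophils. *Dusp6* was at 58.3, 65.6 and 58.4 CPM with saline and 65.6, 86.9 and 66.3 CPM with CGRP (log2 0.26, SE 0.13, adjusted p = 0.392), and the groups touched at their edges. *Dusp7*, encoding the related MKP-X, was at 9.97, 7.49 and 14.6 CPM with saline and at 6.69, 3.23 and 7.02 CPM with CGRP. All its CGRP libraries lay below the saline ones, yet the difference did not pass the test (log2 -0.95, SE 0.34, adjusted p = 0.184). *Dusp2* (-0.28, adjusted p = 0.813), *Dusp3* (-0.16, adjusted p = 0.733) and *Dusp22* (-0.09, adjusted p = 0.898) had groups that overlapped. *Dusp4*, *Dusp10* and *Dusp16* were too low to be tested. *Dusp4* had 2, 7 and 0 counts in the saline libraries and no count in the 3 CGRP libraries, where 3 counts would be 0.918, 0.917 and 1.37 CPM of the library total. *Dusp10* had 1 to 6 counts and *Dusp16* 5 to 11 in each neutrophil library.

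**Figure D2:**
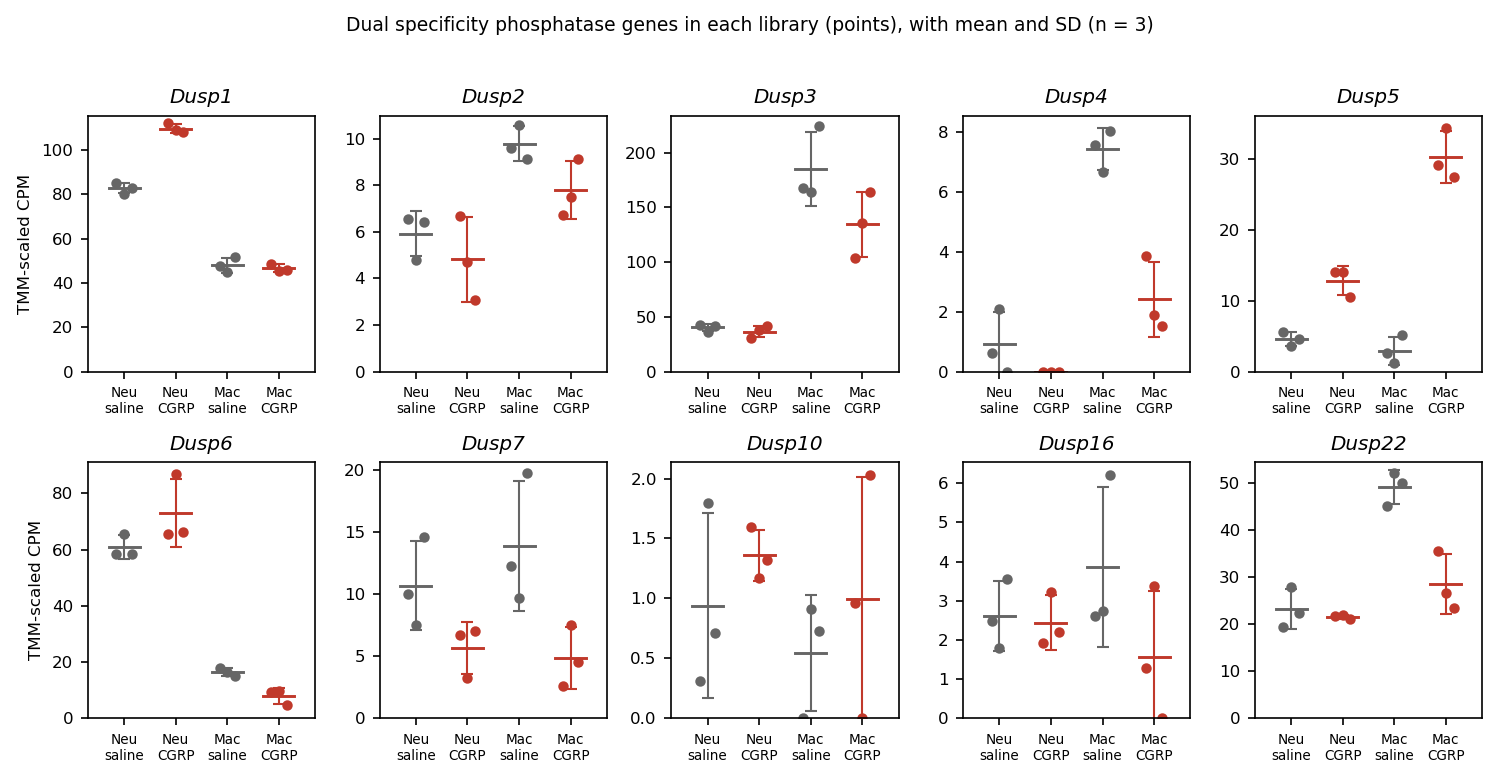
TMM-scaled CPM of each of the 10 genes in neutrophils (Neu) and macrophages (Mac) with saline (grey) or CGRP (red), where points are libraries, lines are means and bars are SD (n = 3). *Dusp5* was higher with CGRP in both cell types without overlap, whereas *Dusp4*, *Dusp6*, *Dusp7* and *Dusp22* lay lower with CGRP in macrophages.

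In macrophages, *Dusp5* rose steeply with CGRP while *Dusp4*, *Dusp6*, *Dusp7* and *Dusp22* fell. Of all 9393 genes tested, 7.43% were differentially expressed, 3.46% higher and 3.97% lower. In all, 8 members passed the filter and 5 were differentially expressed, 1 higher and 4 lower. As the members were chosen with earlier results known, this count does not test them against all genes. The groups did not overlap for 6 of the 8, of which 5 were lower, against 24.1% of all genes (11.9% higher, 12.3% lower). The median log2 fold change of the 8 was -0.62, beside 0.00 for all genes. When 1 library was left out, between 1 and 3 members remained differentially expressed.

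*Dusp5* was at 2.62, 1.21 and 5.12 CPM in the saline macrophages and at 29.2, 34.5 and 27.4 CPM after CGRP. Every treated library lay far above every control library. The rise was 11.6-fold (log2 3.54, SE 0.40, 95% interval 2.69 to 4.39, adjusted p = 2.57e-05), on 27 counts in the saline group and 237 in the CGRP group. It was called in all 6 leave-one-out fits, each without 1 library, with log2 values between 3.05 and 3.97.

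Both cytoplasmic phosphatases of ERK fell. *Dusp6* was at 18.1, 16.4 and 15 CPM with saline and at 9.31, 9.75 and 4.57 CPM with CGRP, with no overlap. The fall was 2.07-fold (log2 -1.05, SE 0.29, adjusted p = 0.0391). It was called without saline replicate 3 or CGRP replicate 1, and not without saline replicate 1 (adjusted p = 0.158), saline replicate 2 (0.0650), CGRP replicate 2 (0.0917) or CGRP replicate 3 (0.157), nor after thinning to the smallest library (0.0545). *Dusp7* was at 12.2, 9.70 and 19.7 CPM with saline and at 2.57, 7.50 and 4.57 CPM with CGRP. The highest CGRP library stayed below the lowest saline library. The fall was 2.92-fold (log2 -1.54, SE 0.41, adjusted p = 0.0301), and it was called without saline replicate 2 but not in the 5 fits that left out any other library (adjusted p between 0.0511 and 0.132).

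*Dusp4* was at 7.57, 6.67 and 8.04 CPM with saline and at 3.85, 1.87 and 1.52 CPM with CGRP, again with no overlap. The fall was 2.94-fold (log2 -1.56, SE 0.42, adjusted p = 0.0335), on 70 counts in the saline group and 20 in the CGRP group. It was not called in any of the 6 leave-one-out fits (adjusted p between 0.0520 and 0.199, log2 between -1.96 and -1.36), nor by DESeq2 (adjusted p = 0.0558). The remaining nuclear members, *Dusp1* and *Dusp2*, gave no call in macrophages. *Dusp1* was at 47.7, 44.8 and 51.5 CPM with saline and 48.8, 45.4 and 45.7 CPM with CGRP (log2 -0.03, 95% interval -0.36 to 0.30, adjusted p = 0.935). *Dusp2* was at 9.61, 10.6 and 9.14 CPM with saline and 6.74, 7.50 and 9.15 CPM with CGRP (log2 -0.36, SE 0.28, adjusted p = 0.534), and the groups met.

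Of the atypical members, *Dusp22*, whose product is also named JKAP and acts on the JNK pathway, was at 45.1, 52.1 and 50.1 CPM with saline and at 35.6, 26.6 and 23.4 CPM with CGRP. The groups did not overlap. The fall was 1.70-fold (log2 -0.77, SE 0.19, adjusted p = 0.0195). It was called in 3 of the 6 leave-one-out fits, and not without saline replicate 1 (adjusted p = 0.0503), CGRP replicate 2 (0.115) or CGRP replicate 3 (0.0932). *Dusp3* was at 168, 164 and 224 CPM with saline and at 104, 136 and 164 CPM with CGRP, so that the lowest saline and the highest CGRP library were nearly equal. Its difference did not pass the test (log2 -0.48, SE 0.17, adjusted p = 0.117). It passed with the replicate number as a block (-0.47, adjusted p = 0.0330) and in a single fit over the 12 libraries (-0.49, adjusted p = 0.0370). *Dusp10* had at most 4 counts in a macrophage library and *Dusp16* at most 17, and neither could be tested.

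All 10 genes together summed to 231, 232 and 235 CPM in saline neutrophils and to 261, 282 and 261 CPM after CGRP. In macrophages they summed to 313, 309 and 390 CPM with saline and to 242, 273 and 282 CPM with CGRP. The total was thus higher with CGRP in neutrophils and lower in macrophages, without overlap in either. In macrophages the nuclear inducible members (*Dusp1*, *Dusp2*, *Dusp4* and *Dusp5*) summed to 67.5, 63.3 and 73.8 CPM with saline and to 88.6, 89.2 and 83.8 CPM with CGRP. The cytoplasmic pair (*Dusp6* and *Dusp7*) summed to 30.3, 26.1 and 34.7 CPM with saline and to 11.9, 17.2 and 9.15 CPM with CGRP. The atypical pair (*Dusp3* and *Dusp22*) held most of the total, with 213, 216 and 274 CPM against 140, 163 and 187 CPM. The JNK and p38 phosphatases (*Dusp10* and *Dusp16*) summed to 2.62, 3.64 and 6.94 CPM against 2.25, 3.37 and 2.03 CPM, with overlap. Among the nuclear members, the mean of *Dusp5* alone was higher with CGRP. In neutrophils the nuclear sum was 97.8, 90.8 and 94.0 CPM with saline and 133, 128 and 122 CPM with CGRP, mostly from *Dusp1*. The cytoplasmic sum in neutrophils was 68.2, 73.1 and 73.0 CPM with saline and 72.3, 90.1 and 73.3 CPM with CGRP, where the groups overlapped. These sums were not tested.

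The CGRP effect differed between the cell types for *Dusp5* and *Dusp6*. The difference was tested as the interaction over the 12 libraries, in which 2.36% of 10694 genes passed (1.21% higher, 1.15% lower), and 9 members could be tested. For *Dusp5* the macrophage effect exceeded the neutrophil effect by a log2 difference of 2.06 (SE 0.49, adjusted p = 0.0242). The effect on *Dusp6* was lower in macrophages, with a difference of -1.29 (SE 0.32, adjusted p = 0.0269). The *Dusp5* difference was called in 6 of the 12 leave-one-out fits, and not without neutrophil saline replicate 1 (adjusted p = 0.0956) or 3 (0.0662), neutrophil CGRP replicate 3 (0.0552), macrophage saline replicate 1 (0.0861) or 2 (0.109), or macrophage CGRP replicate 2, where it was just above the threshold. It was also lost with library totals in place of TMM (0.0509), with no filter on low counts (0.0543) and after thinning to the smallest library (1.80, 0.188). The *Dusp6* difference was also called in 6 of the 12, and not without neutrophil saline replicate 1 (0.0613) or 3 (0.0549), neutrophil CGRP replicate 2 (0.0581), macrophage saline replicate 1 (0.0912) or 2 (0.0507), or macrophage CGRP replicate 3 (0.104), nor with no filter on low counts (0.0609). For *Dusp1*, which was called in neutrophils and not in macrophages, the difference did not pass (-0.43, SE 0.17, adjusted p = 0.255). Nor did it for *Dusp22* (-0.66, SE 0.26, adjusted p = 0.231) or *Dusp7* (-0.58, SE 0.57, adjusted p = 0.751).

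**Figure D3:**
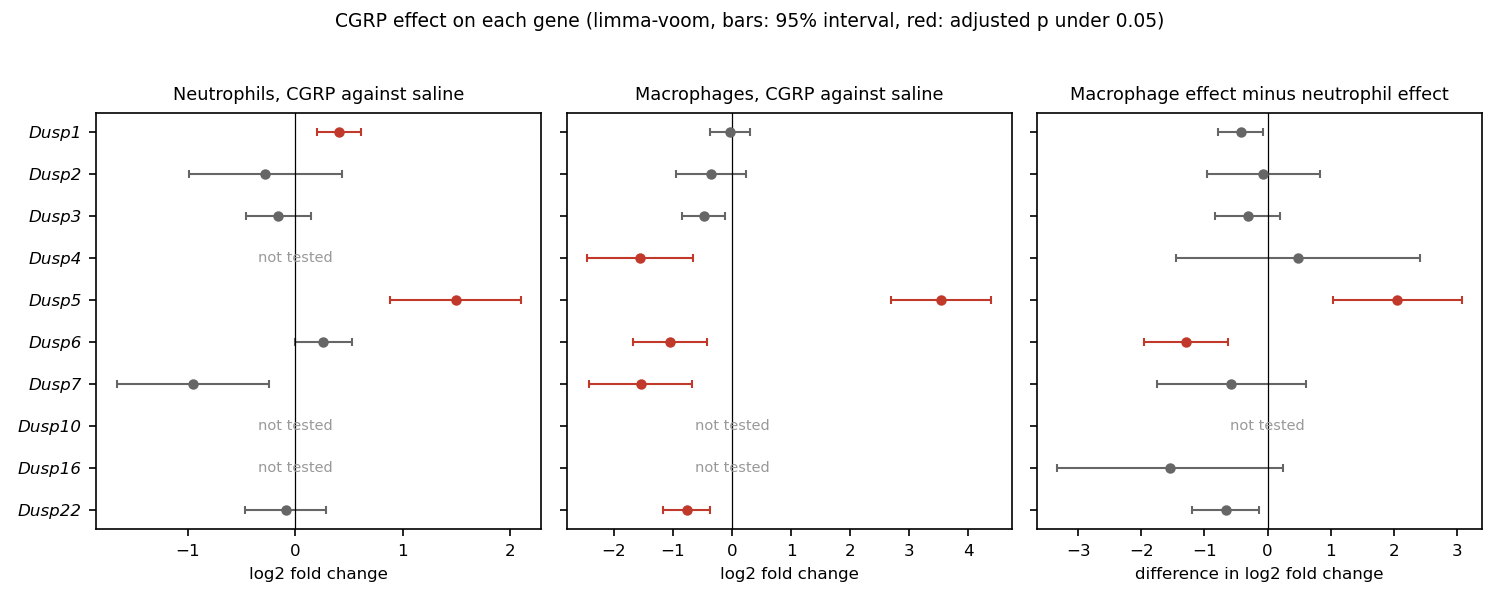
Log2 fold change with CGRP in neutrophils (left) and macrophages (middle) and the difference between them (right), from limma-voom with 95% intervals, in red where the adjusted p was under 0.05. *Dusp5* lay furthest to the right in each panel, and 4 members lay to the left of 0 in red in macrophages.

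Among 8635 genes tested in both cell types, *Thbs1* and *Cyth1* had the patterns most like that of *Dusp5*. Their log2 levels, with the mean of each cell type taken off, had Pearson correlations of 0.98 and 0.98 with *Dusp5* over the 12 libraries. All the libraries share the contrast of CGRP with saline, so any gene that rose in both cell types, and more in macrophages, scores high. *Thbs1*, encoding the matrix protein thrombospondin-1, had log2 fold changes of 2.39 in neutrophils and 5.02 in macrophages. *Cyth1*, encoding the ARF exchange factor cytohesin-1, had 0.93 and 2.27.

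The pathway around the members was followed with 137 genes in 9 lists. Of these, 86 were tested in neutrophils, and 1 rose and 3 fell (4.65%, against 2.53% of all genes). In macrophages 85 were tested, and 2 rose and 7 fell (10.6%, against 7.43%). The lists were chosen with earlier results known, and none of them was singled out by a test of its own.

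*Ccnd1*, *Etv5* and *Spred1* fell in macrophages. They stand in a list of 15 genes known to follow ERK activity, of which 5 were tested, 3 were called lower and 10 were too low to be tested. The median log2 fold change of the 5 was -1.47. In the same libraries *Dusp6* fell, whereas *Dusp5*, which encodes a phosphatase selective for ERK, rose (log2 3.54). ERK activity itself was not measured. *Ccnd1*, encoding the cell cycle regulator cyclin D1, had 300, 226 and 185 counts in the saline libraries and 52, 40 and 36 in the CGRP libraries (log2 -2.15, SE 0.20, adjusted p = 3.93e-06). *Etv5*, encoding an ETS transcription factor, had 68, 41 and 55 counts against 8, 13 and 6 (log2 -2.27, SE 0.39, adjusted p = 1.39e-03). *Spred1*, encoding an inhibitor of RAS and RAF, had 69, 82 and 78 counts against 18, 32 and 19 (log2 -1.47, SE 0.29, adjusted p = 4.01e-03). Each of the 3 had groups far apart and was called in all 6 leave-one-out fits. *Phlda1* (0.23, adjusted p = 0.617) and *Errfi1* (0.35, adjusted p = 0.627) of the same list were not called. The sprouty genes *Spry1*, *Spry2*, *Spry3* and *Spry4* were too low to be tested, with at most 11 counts in any macrophage library. In neutrophils 4 of the 15 could be tested, and limma-voom, edgeR and DESeq2 each called 0, with 0 at an unadjusted p under 0.05.

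Of 22 further dual specificity phosphatases, 11 were tested in macrophages and *Ssh2* alone was differentially expressed. *Ssh2*, encoding a slingshot phosphatase that activates the actin-severing protein cofilin, had 53, 46 and 51 counts in the saline libraries and 91, 128 and 89 in the CGRP libraries (log2 1.30, SE 0.24, adjusted p = 2.21e-03). In neutrophils 9 were tested, and limma-voom, edgeR and DESeq2 each called 0, with 0 at an unadjusted p under 0.05.

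Among 29 classical tyrosine phosphatases, 16 were tested in each cell type, with 2 lower in neutrophils (1 by DESeq2) and 3 lower in macrophages. *Ptpn6*, encoding SHP-1, which restrains signalling in myeloid cells, fell in both. In neutrophils it had 2017, 1909 and 1519 counts in the saline libraries and 1438, 1415 and 978 in the CGRP libraries (log2 -0.42, SE 0.08, adjusted p = 4.99e-03), a call lost without saline replicate 1 (-0.36, adjusted p = 0.0825). In macrophages it had 898, 845 and 621 counts against 395, 329 and 213 (log2 -1.05, SE 0.13, adjusted p = 8.37e-05). The macrophage effect was the larger fall, as the interaction shows (-0.62, SE 0.15, adjusted p = 0.0269). That difference was lost in 6 of 12 leave-one-out fits, those without neutrophil saline replicate 2 or 3, neutrophil CGRP replicate 1, macrophage saline replicate 1, or macrophage CGRP replicate 2 or 3 (adjusted p up to 0.0896). *Ptpn18* fell in neutrophils (log2 -0.33, adjusted p = 0.0331), a call kept without CGRP replicate 1 and lost in the other 5 leave-one-out fits (adjusted p up to 0.152). It was also lost with DESeq2 (adjusted p = 0.0593), library totals (0.145), thinning (0.0803) and the single fit (0.291). *Ptpra* (-0.76, adjusted p = 6.98e-03) and *Ptpre* (-0.61, adjusted p = 6.24e-03), which encode receptor-type phosphatases, fell in macrophages, and both calls were lost without saline replicate 1 (adjusted p = 0.0573 and 0.0528).

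Among the kinases of the pathway, 1 of 17 MAP3 kinases with RAF and 1 of 6 MAP2 kinases were called in neutrophils, and 1 of 8 MAP kinases and 1 of 7 MAPK-activated kinases in macrophages. *Map3k8*, encoding TPL2, the kinase that links Toll-like receptors to ERK, fell in neutrophils from 101, 107 and 83 counts to 63, 47 and 37 (log2 -0.91, SE 0.18, adjusted p = 5.11e-03). It was not called without CGRP replicate 2 (-0.76, adjusted p = 0.0714). *Map2k3*, encoding an activator of p38, rose in neutrophils (log2 0.40, SE 0.09, adjusted p = 0.0115), a call lost without saline replicate 1 (0.36, adjusted p = 0.108) and in the single fit (adjusted p = 0.0827). In macrophages *Mapk6*, encoding the atypical kinase ERK3, fell (log2 -1.04, SE 0.19, adjusted p = 2.14e-03). *Mknk2*, encoding a kinase of the translation factor eIF4E, rose there (log2 0.83, SE 0.23, adjusted p = 0.0378), with overlapping groups, and was called in 2 of the 6 leave-one-out fits, not without saline replicate 1 or 2 or CGRP replicate 2 or 3 (adjusted p up to 0.253), nor with library totals (adjusted p = 0.0840).

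The other lists gave 0 calls by limma-voom, edgeR and DESeq2 in the cell type named. In neutrophils these were MAP kinases (9 tested, 0 at an unadjusted p under 0.05), MAPK-activated kinases (9 tested, 0), scaffolds (8 tested, 1) and decay factors of AU-rich messages, which control many short-lived transcripts (8 tested, 0). In macrophages these were MAP2 kinases (6 tested, 0), MAP3 kinases with RAF (16 tested, 1), scaffolds (8 tested, 3) and decay factors (8 tested, 1).

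**Figure D4:**
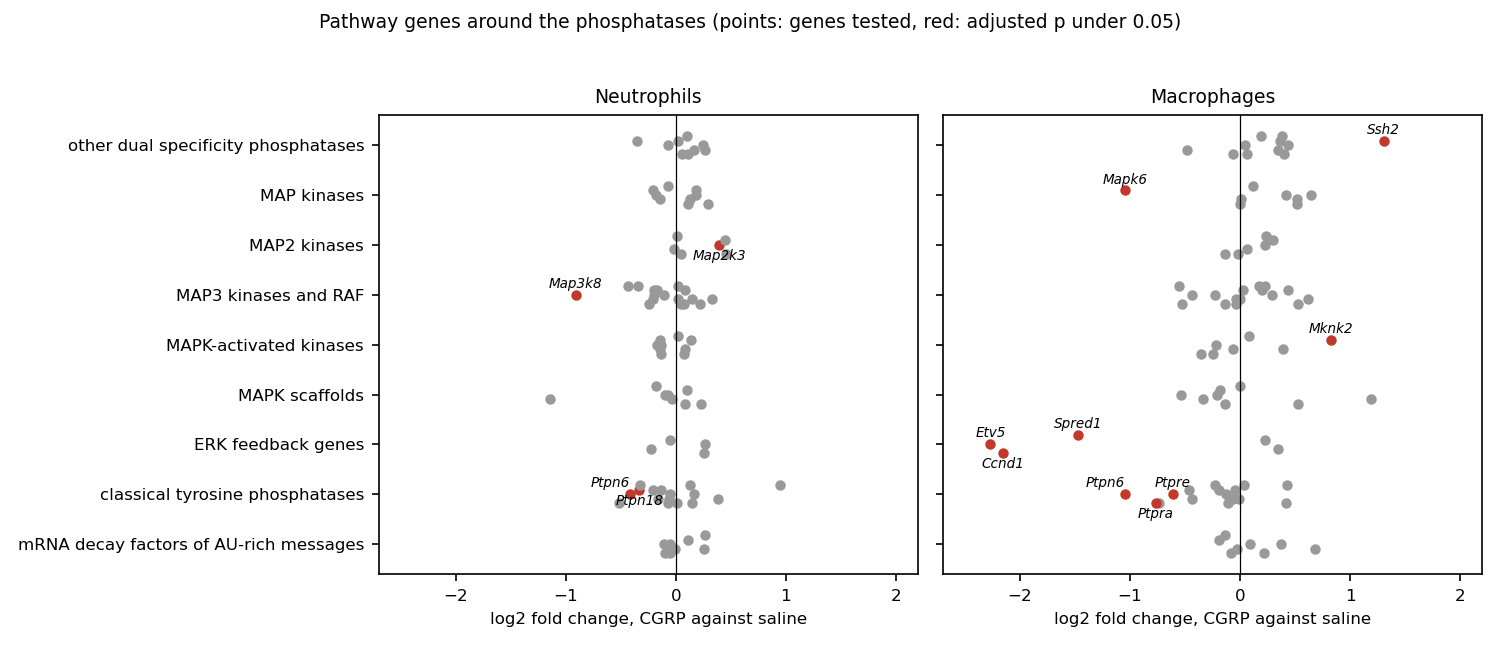
Log2 fold change with CGRP of each tested gene of the 9 lists in neutrophils (left) and macrophages (right), with one point per gene, placed at slightly different heights within a list, and names on the genes with an adjusted p under 0.05 (red). *Etv5*, *Ccnd1* and *Spred1*, all from the list of genes known to follow ERK activity, lay furthest down in macrophages, to the left of all other genes drawn.

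Some other measures lay apart between saline and CGRP libraries, and their part in the changes of the *Dusp* genes was not tested. Groups without overlap were also found for 24.1% of all genes tested in macrophages and 17.8% in neutrophils. In macrophages the summed macrophage markers were 35020, 39012 and 35280 CPM with saline and 44001, 47478 and 50253 CPM with CGRP, without overlap, none of the 10 being at 0. Most of this sum was *Apoe*, the one marker of the 10 that was differentially expressed (log2 0.46, adjusted p = 0.0263). The summed neutrophil markers in macrophages were 338, 398 and 306 CPM with saline and 453, 425 and 419 CPM with CGRP, and 0 of the 8 tested were called. The summed dendritic cell markers in macrophages, most often led by *Cd209a*, with 1 or 2 of 5 at 0, were 3.49, 4.85 and 4.75 CPM with saline and 7.06, 9.75 and 7.62 CPM with CGRP, and the summed B cell markers, of which 4 of 5 were at 0 and *Cd79b* was not, were 32.3, 33.0 and 31.8 CPM and 38.2, 40.5 and 37.6 CPM, both without overlap. Of the dendritic cell markers only *Cd209a* could be tested by limma-voom (adjusted p = 0.125), and of the B cell markers only *Cd79b* (0.427). Neither was called. The mitochondrial share of counts in macrophages was 1.48%, 1.44% and 1.57% with saline and 1.23%, 1.38% and 1.34% with CGRP. In neutrophils the summed T and NK cell markers, led by *Nkg7*, were 113, 123 and 130 CPM with saline and 108, 83.1 and 105 CPM with CGRP. Of these markers *Nkg7* (adjusted p = 0.198) and *Cd3d* (0.445) could be tested by limma-voom, and neither was called.

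Little of the members' sequence was shared with other transcripts read in the same direction. Of the 31-base sequences in the last 500 bases, none occurred in a transcript of another gene for 9 of the members. For *Dusp10* 0.319% did. Opposite strands were not compared in this search, so that overlaps with antisense genes are given separately. *Dusp1* overlaps the antisense gene *Ergic1* by 11 exonic bases that lie 55899 bases from its 3′ end. *Dusp3* overlaps the antisense gene *Gm20659* by 604 exonic bases that reach the 3′ end of *Dusp3*. *Gm20659* had at most 2 counts in any library. *Dusp5* (chr19:53529109-53542431, plus strand) overlaps an antisense transcript, AC137853.2, over 547 bases at its 5′ end, 12776 bases from the 3′ end, near which priming at the poly-A tail places reads. The strand setting of the counting is not given in the sources used here, so reads from a gene and its antisense partner cannot be told apart.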

How the data were processed

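RNA from the 12 libraries was primed with oligo-dT and carried unique molecular identifiers. Using nfCore/RNAseq in its umi mode, the authors aligned reads to GRCm38 (STAR), obtained gene counts (featureCounts) and deposited these raw counts as 1 table per cell type. The annotation release and strand setting are not given in the sources used here. Genes were filtered with filterByExpr and scaled by TMM, and groups were compared with limma-voom (limma 3.58.1, edgeR 4.0.16, R 4.3.3), two-sided, with Benjamini–Hochberg adjustment over all genes tested and a threshold of 0.05. The interaction used all 12 libraries and the cell types were compared over the 6 saline ones. DESeq2 1.42.0 and the quasi-likelihood test of edgeR were run as alternatives, with other scalings and filters, quality weights, a replicate block, thinning, a single fit and leaving out each library. Gene positions and lengths came from GENCODE M21 on GRCm38 (52489 of 52636 identifiers matched) and promoters from RefSeq. Steps were tested on simulated data. Floors cover counting error only. All 10 members are named. From each pathway list up to 3 genes per cell type with an adjusted p under 0.05 are named, by smallest adjusted p, and genes of the ERK list not called were named after their values were seen. The 3 genes most like *Dusp5* were taken by Pearson correlation, since it had the smallest adjusted p among the members in both cell types, and 1 of them is not reported here. Members and lists were chosen with earlier results of these data known.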

Additional observations from a re-analysis of the deposited data

Results flagged for a closer look

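Among the 9 members and 91 pathway genes that could be tested, the effects of CGRP on 7 differed between macrophages and neutrophils by the interaction test of limma-voom, in which 252 of all 10694 genes (2.36%) passed. They are given as macrophage minus neutrophil log2 fold change. Among the members these were *Dusp5* at 2.06 and *Dusp6* at -1.29. In the pathway lists they were *Ssh2* at 1.39 (adjusted p = 2.03e-03), *Ccnd1* at -2.40 (adjusted p = 6.50e-04), *Etv5* at -3.21 (adjusted p = 0.0285), *Ptpn6* at -0.62 and *Ptpre* at -0.55 (adjusted p = 0.0369). *Ccnd1* and *Ssh2* passed in all 12 leave-one-out fits, *Ptpn6* in 6, *Etv5* in 4 (adjusted p up to 0.138) and *Ptpre* in 2 (adjusted p up to 0.101). After thinning to the smallest library *Etv5* (adjusted p = 0.0590) and *Ptpre* (adjusted p = 0.0671) were no longer called. *Etv5* was too low to be tested within neutrophils, with 2, 4 and 3 counts in the saline libraries and 11, 10 and 1 in the CGRP libraries, so that the size of its difference rests on few counts.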

How the results depend on the processing

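Members called in neutrophils numbered 1 in place of 2 with DESeq2, with no filter on low counts and in the single fit. In macrophages they numbered 1 in place of 5 when at least 10 counts were required in every library, which left 4 members to test. In the interaction they numbered 1 in place of 2 with library totals and with thinned counts, and 0 without a filter and with at least 10 counts in every library, which left 3 to test. Differentially expressed genes numbered 1406 in macrophages with quality weights and 1050 in the single fit, against 698. They numbered 137 in neutrophils in the single fit, against 248, and 520 in the interaction with quality weights, against 252. With library totals 150 were higher and 64 lower in neutrophils, against 148 and 100, 245 and 405 in macrophages, against 325 and 373, 88 and 154 in the interaction, against 129 and 123, and 3556 and 3249 between saline cell types, against 3361 and 3614.

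Leaving out 1 library gave 138 to 234 genes in neutrophils, 347 to 765 in macrophages, 149 to 328 in the interaction and 6547 to 7265 between saline cell types. Members called then ranged from 0 to 2, 1 to 3, 0 to 2 and 5 to 7. Signs turned for values that did not pass the test, with ranges of -0.22 to 0.06 for *Dusp22* in neutrophils, -0.083 to 0.017 for *Dusp1* in macrophages, and -0.31 to 0.20 for *Dusp2* and -0.45 to 1.37 for *Dusp4* in the interaction. Thinning also turned *Dusp2* in the interaction to 0.34. The causes were not tested.

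Deviations of libraries with the same replicate number had correlations of -0.01 to 0.13 in neutrophils and -0.18 to 0.27 in macrophages. Those with different numbers had correlations of -0.13 to 0.10 and -0.40 to 0.38. With 3 pairs of equal number per cell type, these values cannot decide whether the numbers mark pairs. The labels do not say so, and the numbers were not taken as pairs. With the replicate block 266 genes were called in neutrophils, 915 in macrophages, 295 in the interaction and 7248 between saline cell types. Without the block these were 248, 698, 252 and 6975. *Dusp3* in macrophages was gained and *Ptpre* in the interaction lost (adjusted p = 0.0554).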
